A study of Homo sapiens with 3 samples.

Results

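The genes described here encode telomerase and its H/ACA protein partners (TERT, DKC1, NHP2, NOP10 and GAR1) and 5 subunits of shelterin (TERF1, TERF2, POT1, TINF2 and ACD), 10 of the 25247 gene symbols in the deposited tables. They were chosen by name as parts of both complexes, with earlier results of the same comparison of control and romidepsin libraries known, so their differences between those libraries are given as a description, with no test of their own. A row of its own was found for 9 of them. DKC1 was read only in 1 joint row with SNORA36A and SNORA56, small nucleolar RNAs that lie in its introns, so its value cannot be separated from theirs. All 10 passed the filter of at least 1 FPKM in 1 library (FPKM, fragment counts divided by transcript length and by library size), and each of them passed it in the control too.

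RNA was sequenced from OCI-AML2 R50, a culture of the established acute myeloid leukaemia line OCI-AML2 grown in 15% serum with 50 µM cytarabine (Ara-C), the nucleoside analogue of leukaemia chemotherapy. Control cells (1 library) were compared with cells given romidepsin, a macrocyclic drug that blocks class I histone deacetylases, for 18 h (2 libraries). All 3 libraries came from the culture kept in cytarabine, so none shows cells free of that drug. No source used here gives the romidepsin dose or says whether the romidepsin libraries came from separate cultures, so the spread between them may be technical. With 1 control library, a difference between cultures and a difference due to romidepsin cannot be told apart.

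Telomerase adds telomeric repeats to chromosome ends. TERT is its reverse transcriptase and copies the template within the RNA subunit TERC. DKC1 (dyskerin), NHP2, NOP10 and GAR1 form a particle on the H/ACA domain of TERC. The same proteins form the core of all H/ACA small nucleolar ribonucleoproteins, which guide pseudouridylation of ribosomal RNA, and DKC1 is the pseudouridine synthase. Shelterin coats the finished repeat: TERF1 (TRF1) and TERF2 (TRF2) bind its double-stranded part, POT1 binds the single-stranded overhang, ACD (TPP1) holds POT1 and recruits telomerase, and TINF2 (TIN2) bridges the other subunits. TERT is silent in most somatic cells and active in most leukaemia cell lines, and MYC is a known activator of its promoter through the E-box CACGTG.

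Stretches of promoter are shown for TERT, which had the largest decrease among the members, for NOP10, the telomerase partner that stayed closest to its control level, and for NHP2, which decreased with no CACGTG in its window. They come from RefSeq on GRCh38.p14, a different build from the hg19 of the expression values, and are read 5′ to 3′ on the minus strand, with positions counted back from -1, the base before the annotated start. Capitals mark CACGTG in TERT and NOP10, and GGGCGG or its reverse complement CCGCCC (the GC box bound by SP1) in NHP2.
TERT, chr5:1295178-1295278, positions -210 to -110: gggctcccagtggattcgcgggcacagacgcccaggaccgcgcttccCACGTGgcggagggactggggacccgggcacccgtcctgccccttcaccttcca
NOP10, chr15:34343137-34343386, positions -250 to -1: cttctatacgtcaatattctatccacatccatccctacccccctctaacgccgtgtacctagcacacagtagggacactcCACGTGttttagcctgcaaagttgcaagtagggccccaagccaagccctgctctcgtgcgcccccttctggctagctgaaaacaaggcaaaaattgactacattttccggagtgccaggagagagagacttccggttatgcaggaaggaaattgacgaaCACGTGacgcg
NHP2, chr5:178153985-178154135, positions -250 to -100: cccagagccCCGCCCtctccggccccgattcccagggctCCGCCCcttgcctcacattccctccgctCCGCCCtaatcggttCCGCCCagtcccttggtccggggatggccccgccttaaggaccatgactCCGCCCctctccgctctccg

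Promoter windows were found for 8 of the 10 members; TERF1 and TERF2 had no entry. In the 250 bases before the start, CACGTG, which reads the same on both strands, was present in 2 of these 8, beginning at -163 in TERT and at -170 and -11 in NOP10. It was in 6.34% of all 35116 windows of that length. The windows of DKC1, NHP2, GAR1, POT1, TINF2 and ACD did not hold these 6 letters. GGGCGG, searched on both strands with overlapping matches counted, was present in 7 of the 8 genes (all but NOP10) and in 42.6% of all windows. Members were counted by gene, over 10 windows of the 8 genes, whereas both shares are per window (35116 windows of 27305 genes). Counted by gene, 970 of the 8409 tested genes with a matched window held CACGTG, and 6277 of them held GGGCGG. These are the counts to set beside 2 and 7 of the 8 members, and no enrichment is read from them. NHP2 held 5 matches, DKC1 4, and TERT, POT1 and ACD 2 each. TINF2 held 1 match in 1 window and 2 in another, and GAR1 held 1 and 0. A match is a match of letters and shows no binding. The genes printed above were picked with their changes known, and whether CACGTG bears on the change of any member was not tested.

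Between the romidepsin libraries, the standard deviation of the difference was 0.14 on the log2(FPKM + 1) scale over the 11708 genes tested, and for 95% of these genes the pair lay within 0.22. The summed FPKM of the libraries, rows with no gene name included, was 790922 in the control against 668773 and 657213. The steps between low FPKM values corresponded to about 20300000 fragments for the control, 23900000 for romidepsin replicate 1 and 22400000 for replicate 2. These depths are rough, since 44.2% to 50.5% of the low values lay within 0.15 of a whole fragment. All 12 myeloid blast markers passed the filter; by the limma test 8 of them fell and 4 rose (median -0.60), and their summed level was 8348 FPKM in the control against 4682 and 4628. LYZ, the most abundant, fell from 4258 to 2630 and 2596 FPKM, CTSG from 1422 to 468 and 461 FPKM and MPO from 751 to 444 and 433 FPKM, while PTPRC rose from 71.3 to 96.7 and 95.9 FPKM. The largest log2 difference of this list was that of ANPEP, which rose from 0.654 to 5.40 and 5.24 FPKM. All 6 epithelial markers stayed under 1 FPKM, 7 of 10 erythroid and megakaryocyte markers (the globin genes and PF4 among them) were at 0 in every library, and MS4A1 and KLRD1 of the lymphoid list were at 0. Summed levels of the remaining lists were higher after romidepsin: 0.661 against 9.88 and 9.41 FPKM for 6 fibroblast markers (COL1A2 and COL3A1 at 0 throughout), 24.9 against 43.8 and 44.0 for 10 lymphoid markers, of which NCAM1 made up most, and 8.55 against 13.6 and 15.3 for the erythroid and megakaryocyte list. Their part in the values below was not tested.

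Of the 10 members, 5 were lower and none higher by the limma test across all genes, where 41.8% of the 11708 genes were called lower and 34.7% higher. Those 5 were TERT, DKC1, NHP2, GAR1 and ACD. At an unadjusted p under 0.05, 0 members were higher and 6 lower, TINF2 being the other. Because the members were proposed with this contrast in view, nothing is read from that count. At least a 2-fold difference on the log2(FPKM + 1) scale in both romidepsin libraries was met by 3 members, all lower (TERT, DKC1 and GAR1), against 3.08% of all genes lower and 7.43% higher. With equal library sums, or with quantile normalization, 1 member met this rule (TERT), where 172 and 388 of the 11708 genes were lower by it. Both romidepsin libraries lay below the control for 7 members and above it for 2 (TERF1 and TERF2), against 51.4% and 43.8% of all genes, and the control of POT1 lay between them.

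**Figure D1:**
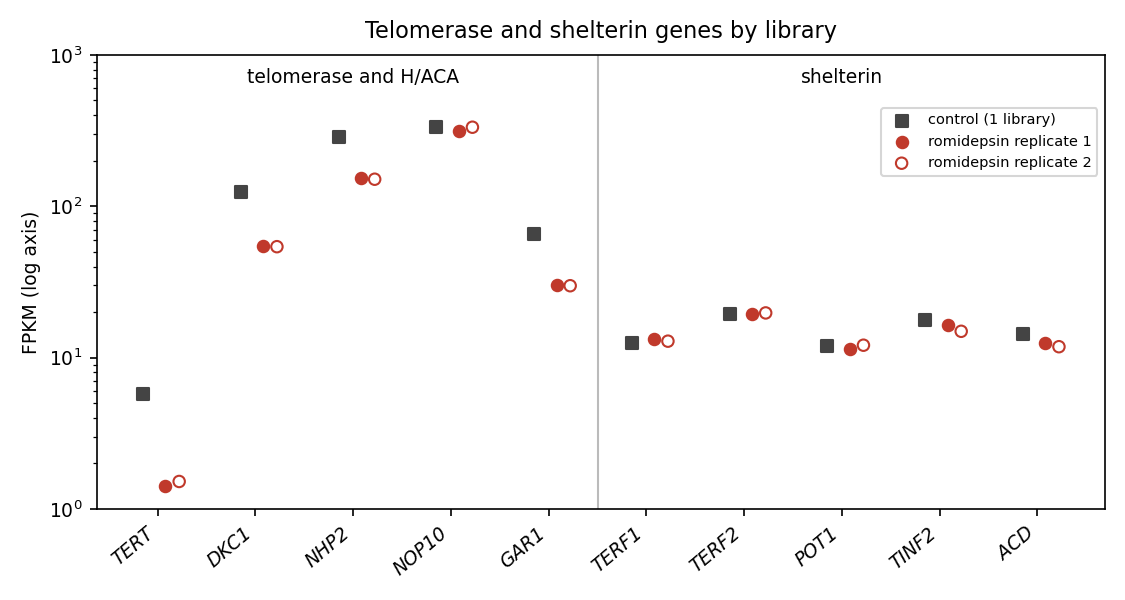
FPKM on a log axis of each member in the control library (grey square) and in romidepsin replicate 1 (filled circle) and replicate 2 (open circle). TERT, DKC1, NHP2 and GAR1 lie well below their control squares after romidepsin, while NOP10 and the 5 shelterin genes lie on or close to theirs.

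TERT, the catalytic subunit, was read at 5.76 FPKM in the control and at 1.43 and 1.52 FPKM in the romidepsin libraries. The romidepsin values were thus 24.7% and 26.4% of the control, and their mean of 1.47 ± 0.0666 FPKM (SD, n = 2) was 3.91-fold below it. The distance between the romidepsin libraries was 0.05 on the log2(FPKM + 1) scale, against -1.45 for the difference from the control. Only 0.649% of tested genes had a more negative difference. TERT was also the least abundant member in every library, with 31.6% of tested genes below it in the control. The values correspond to about 458 fragments in the control and 134 and 133 after romidepsin, for which counting alone gives errors of about 4.67% and 8.65%.

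DKC1, the pseudouridine synthase, was at 124 FPKM in the control and, after romidepsin, at 54.5 and 54.1 FPKM, in the joint row with its intronic RNAs. The mean of 54.3 ± 0.305 FPKM (SD, n = 2) was 2.29-fold below the control. GAR1, whose glycine- and arginine-rich ends flank the part that binds dyskerin, was at 65.1 FPKM in the control and, after romidepsin, at 30.2 and 29.9 FPKM, 2.17-fold lower. The romidepsin libraries gave nearly the same value for both genes, and the ratio of DKC1 to GAR1 changed little, from 1.91 in the control to 1.81 in each romidepsin library.

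NHP2, which binds the upper stem of H/ACA RNAs, was at 285 FPKM in the control and, after romidepsin, at 155 and 151 FPKM. Its mean of 153 ± 2.77 FPKM (SD, n = 2) was 1.86-fold lower, a smaller fold than those of DKC1 and GAR1, and the log2 difference was -0.89. GENCODE release 29 lists 2 numbered pseudogenes of NHP2, and no source used here says how fragments shared with such copies were assigned.

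NOP10, the smallest protein of the core, which sits on the catalytic domain of dyskerin, was at 333 FPKM in the control, at 312 FPKM in romidepsin replicate 1 and at 333 FPKM in replicate 2, or 93.8% and 99.9% of the control. The log2 difference of -0.05 was smaller than the 0.09 between the romidepsin libraries. With its partners lower, the ratio of NOP10 to DKC1 went from 2.68 in the control to 5.73 and 6.15, and that of NOP10 to GAR1 from 5.12 to 10.4 and 11.1.

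The order of the 5 genes by FPKM, which is scaled per length, was the same in all 3 libraries: NOP10, NHP2, DKC1, GAR1, TERT. NOP10 and NHP2 were within 1.17-fold of each other in the control and 2.02-fold and 2.21-fold apart after romidepsin. The span from TERT to NOP10 was 57.8-fold in the control and 219-fold in each romidepsin library, and the ratio of DKC1 to TERT was 21.5 in the control and 38.2 and 35.6 after romidepsin. In bulk RNA, fewer cells expressing a gene and less RNA per cell cannot be told apart.

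**Figure D2:**
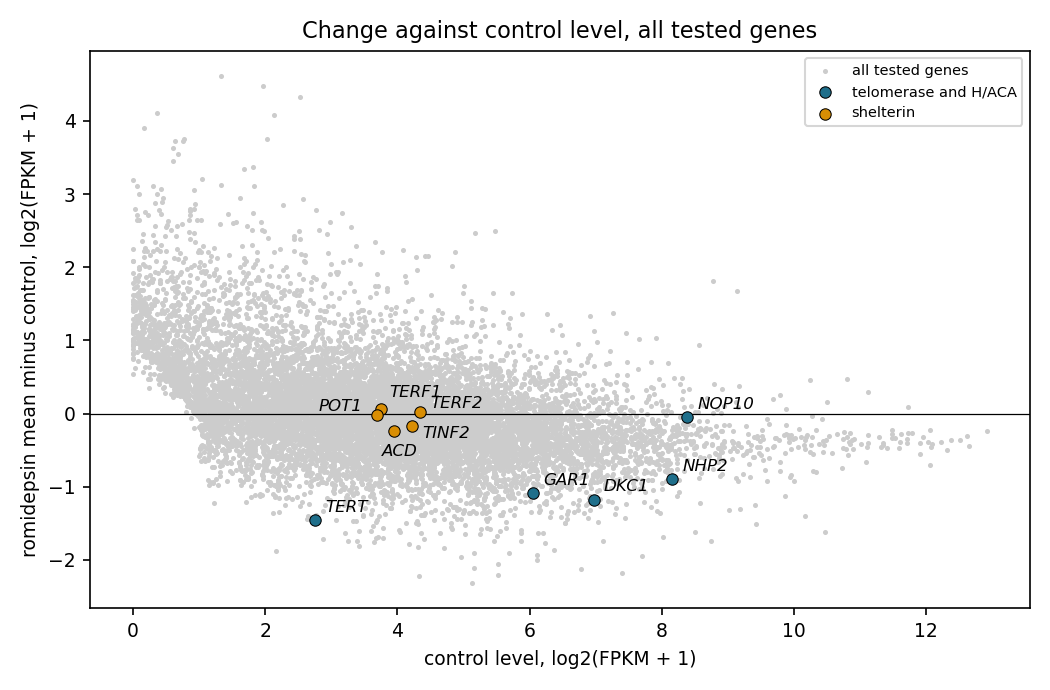
Difference of the romidepsin mean from the control against the control level, both on the log2(FPKM + 1) scale, for all 11708 tested genes (grey) with the members marked. TERT lies at -1.45 near the lower edge of the cloud, DKC1, GAR1 and NHP2 lie between -1.18 and -0.89 at higher levels, and the shelterin genes lie together between -0.23 and 0.06.

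The 5 shelterin genes held similar, moderate levels, from 11.9 FPKM (POT1) to 19.3 FPKM (TERF2) in the control. The span from lowest to highest was 1.62-fold in the control and 1.71-fold and 1.67-fold after romidepsin, against 57.8-fold for the telomerase group. Their summed level was 75.8 FPKM before and 73.0 and 71.4 FPKM after romidepsin.

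TERF1 was at 12.5 FPKM in the control and, after romidepsin, at 13.3 and 12.8 FPKM. GENCODE release 29 lists 5 numbered pseudogenes of TERF1, so its level carries the same uncertainty as that of NHP2. TERF2, its paralogue, was at 19.3 FPKM in the control and, after romidepsin, at 19.4 and 19.7 FPKM. TERF1 was at most 107% and TERF2 at most 102% of the control in a romidepsin library, and the ratio of TERF2 to TERF1 was 1.54 in the control and 1.46 and 1.54 after romidepsin.

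POT1, the single-strand binding subunit, was at 11.9 FPKM in the control, between its romidepsin values of 11.3 and 12.1 FPKM. TINF2, the bridge, was at 17.6 FPKM in the control and, after romidepsin, at 16.4 and 14.9 FPKM. Its romidepsin libraries were 1.10-fold apart, the widest distance among the members, beside a difference of 1.13-fold between their mean and the control. ACD, the partner of POT1, was at 14.4 FPKM in the control and, after romidepsin, at 12.4 and 11.8 FPKM, 1.19-fold lower. It was among the members called lower in the count above, from which nothing is read. That call was lost with no filter on low values and with the libraries scaled to the same sum. ACD stood above POT1 in the control (1.21-fold) and next to it after romidepsin (1.10-fold and 0.977-fold), so the order of these neighbours was not the same in every library.

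The scaling of the libraries changed the direction of POT1, NOP10 and TINF2 and not that of the other 7 members. In the first alternative, each library was scaled to the same summed FPKM over the named genes. The median of all genes then moved from -0.05 to 0.16 on the log2 scale, and 65.0% of called genes were higher instead of 45.3%. TERT was then at -1.27, DKC1 at -0.94, GAR1 at -0.86 and NHP2 at -0.65. TERF1, TERF2 and POT1 moved to 0.28, 0.25 and 0.20, NOP10 to 0.19 and TINF2 to 0.06, while ACD was at -0.01. Relative to the median of all genes, the same values were close to those on the deposited scale, for example -1.43 against -1.40 for TERT, 0.12 against 0.11 for TERF1 and 0.03 against 0.00 for NOP10. With quantile normalization NOP10 was at 0.19 and TERT at -1.65.

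**Figure D3:**
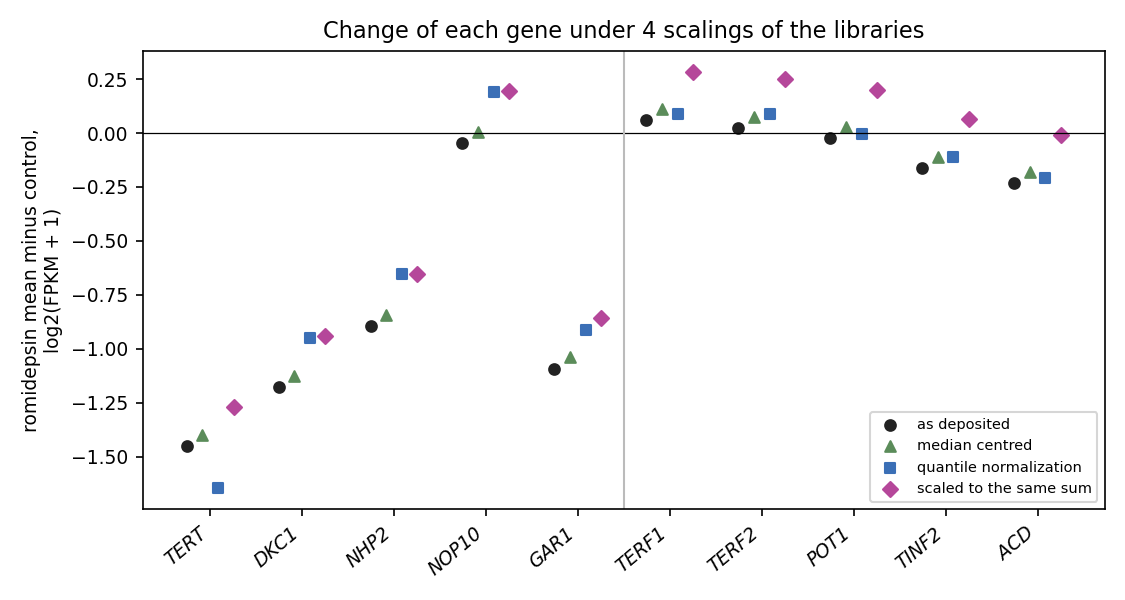
Difference of the romidepsin mean from the control on the log2(FPKM + 1) scale for each member, with the libraries as deposited, centred on the median of all genes, quantile normalized, or scaled to the same sum. TERT, DKC1, NHP2 and GAR1 stay between -1.65 and -0.65 in all 4, whereas POT1, NOP10 and TINF2 lie on different sides of 0 depending on the scaling.

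TERC, the RNA subunit, was at 1.24 FPKM in the control and, after romidepsin, at 0.630 and 1.24 FPKM. These values rest on about 11, 7 and 12 fragments, and the romidepsin libraries differed more from each other than replicate 2 did from the control, so a change in TERC was not detectable at this depth. TERC is mostly not polyadenylated, and no source used here names the RNA selection used for the libraries.

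A mixed list of 23 genes covered TERC maturation, telomerase assembly and trafficking, and other telomerase-associated, RNA decay or nucleolar factors. Of these 23, 17 fell and 4 rose by the limma test. Their median log2 difference was -0.45 beside -0.05 for all tested genes, of which 41.8% fell and 34.7% rose. Among those that rose, named here after their values were seen, were SMG6, an endonuclease of RNA decay that also binds telomerase, from 3.77 to 6.71 and 6.89 FPKM, TEP1, a telomerase-associated protein, from 3.60 to 6.59 and 6.29 FPKM, and PAPD5, a poly(A) polymerase acting on TERC, from 3.76 to 4.67 and 4.94 FPKM. The largest difference was that of NAT10, an RNA acetyltransferase of the nucleolus, which fell from 58.6 to 28.06 and 29.05 FPKM (2.05-fold; adjusted p = 1.26e-06). GNL3L, a nucleolar GTPase, fell 1.89-fold from 14.9 to 7.89 and 7.93 FPKM. EXOSC10, the nuclear exosome nuclease, fell 1.71-fold, and RUVBL2, an ATPase of the machinery that assembles H/ACA particles, fell 1.68-fold from 192 to 115 and 114 FPKM.

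The core proteins of the box C/D particles, the methylation-guiding counterparts of the H/ACA particles, all fell: 4 of 4, with a median of -0.71, where 41.8% of all tested genes fell. Fibrillarin (FBL), the methyltransferase, went from 399 to 232 and 245 FPKM (1.67-fold). NHP2L1, a relative of NHP2, went from 153 to 94.7 and 89.8 FPKM (1.66-fold). NOP56, read in a joint row with MIR1292 and SNORD86, fell 1.63-fold and NOP58 1.37-fold. Beside the box C/D core, the H/ACA core spanned a wider range of differences, with DKC1, GAR1 and NHP2 below all 4 of these genes and NOP10 above them; whether the cores differ was not tested.

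**Figure D4:**
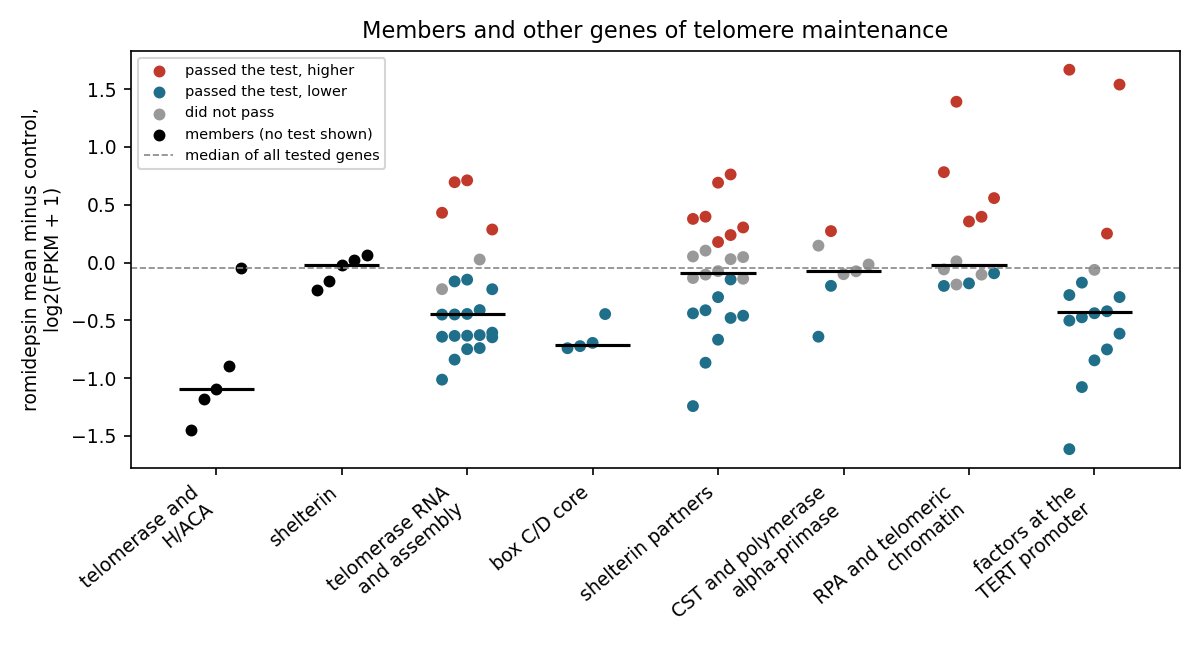
Difference of the romidepsin mean from the control on the log2(FPKM + 1) scale for each gene of the 2 member groups (black) and of 6 lists of other telomere genes, coloured by the limma call, with bars at the list medians and a dashed line at the median of all tested genes. The 4 box C/D genes lie between -0.74 and -0.45, and the shelterin partners spread from -1.24 to 0.76 around a median of -0.09.

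TERF2IP (RAP1), the shelterin subunit that binds TERF2, was at 34.7 FPKM in the control and, after romidepsin, at 36.02 and 34.85 FPKM, 1.02-fold of the control (adjusted p = 0.565, limma), and was called higher with quantile normalization and with equal library sums. Of the 24 shelterin partners and accessory enzymes, TERF2IP included, 7 rose and 9 fell, with a median of -0.09, shares near the 34.7% and 41.8% of all tested genes. With equal library sums 12 were higher, beside 48.7% of all tested genes. FBXO4, a subunit of a ubiquitin ligase for TRF1, fell from 26.7 to 10.8 and 10.6 FPKM (2.49-fold; limma adjusted p = 1.1e-06). NBN, of the MRE11 nuclease complex, fell 1.87-fold from 32.5 to 17.7 and 17.1 FPKM. PIF1, a helicase that removes telomerase from DNA ends, rose 2.01-fold from 2.22 to 4.71 and 4.22 FPKM, and TNKS1BP1, a binding partner of tankyrase, rose 1.73-fold.

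The CST complex ends telomerase action and brings DNA polymerase alpha-primase to fill in the opposite strand. Its subunit CTC1 was at 6.57 FPKM in the control and, after romidepsin, at 6.53 and 6.43 FPKM (limma adjusted p = 0.826), but was 0.19 higher on the log2 scale, and called, with equal library sums. OBFC1 (STN1) was at 4.83 FPKM and at 5.56 and 5.35 FPKM. It was not called as deposited, but was called higher with equal library sums and with median centring. TEN1 was read only in a joint row with CDK3, MIR4538 and TEN1-CDK3, which fell from 12.1 to 7.88 and 6.98 FPKM. With the polymerase alpha-primase genes, 1 of 7 rose and 2 fell (median -0.08), beside 34.7% and 41.8% of all tested genes. With equal library sums 5 were higher and 1 lower, beside 48.7% and 26.2% of all tested genes. Also 1 was lower with no filter, with quantile normalization or without joint rows, beside 24.4%, 37.5% and 41.8% of the genes tested. PRIM2 rose 1.21-fold, and PRIM1 fell 1.15-fold, a call lost with no filter and with quantile normalization; it was 0.04 higher, and not called, with equal library sums.

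Of 12 genes of single-strand binding and telomeric chromatin, 5 rose and 3 fell (median -0.02), beside 34.7% and 41.8% of all tested genes. None of the 12 was called lower with equal library sums or quantile normalization, where 26.2% and 37.5% of all tested genes were. The histone chaperone gene ASF1B rose from 47.6 to 128 and 125 FPKM (2.66-fold; limma adjusted p = 1.91e-07), and its paralogue ASF1A rose 1.74-fold from 27.6 to 48.5 and 47.9 FPKM. SP100, a component of PML bodies, rose 1.52-fold and NSMCE2, a SUMO ligase of the SMC5-SMC6 complex, rose 1.33-fold.

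Of 16 transcription factors described at the TERT promoter, 12 fell and 3 rose, with a median of -0.43, beside 41.8% and 34.7% of all tested genes. MYC was at 362 FPKM in the control and, after romidepsin, at 119 and 116 FPKM, 3.08-fold lower (limma adjusted p = 1.24e-07). MXD1, which pairs with MAX at E-boxes and represses MYC targets, rose from 2.45 to 8.85 and 9.21 FPKM, 3.68-fold. ETS1, a factor that binds GGAA motifs, rose 3.44-fold from 8.18 to 27.4 and 28.9 FPKM, and MAZ, a zinc finger protein that binds G-rich promoters, fell 2.12-fold from 214 to 102 and 99.7 FPKM. Whether any of these changes bears on the level of TERT was not tested.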

How the data were processed

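FPKM values were deposited by the authors as 1 table per library, per the file headers. The submitters' processing notes name TopHat, Cufflinks, Cuffdiff and hg19; no source used here gives versions, settings or the gene annotation. Rows with no gene name (1770) or a bare number (27) were left out; they held 21.1% to 22.3% and 0.075% to 0.0881% of the summed FPKM. Rows of 1 symbol were summed, and joint names were kept. Genes reaching 1 FPKM in at least 1 library (11708) were compared as log2(FPKM + 1) with limma 3.58.1 in R 4.3.3 (mean-variance trend, Benjamini-Hochberg adjustment over all of them, threshold 0.05). On this scale the change of low genes is understated. Only the romidepsin pair gave residual variance (1 degree of freedom), and the single control is taken to vary as that pair does, so many small differences pass. The members and lists were chosen with earlier results of these data known. Named genes were the members, the 4 largest differences of each list, and TERC, TERF2IP, CST subunits, box C/D core proteins and MYC; 1 further gene of this rule is not reported here. Fragments were estimated from steps between low values with GENCODE 29 transcript lengths (offset 100 bases). Alternatives covered pseudocount, filter, scaling, trend, joint rows and leaving out each romidepsin library. Python 3.11.15, pandas 2.3.3, numpy 2.4.6 and matplotlib 3.10.9 were used.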

Additional observations from a re-analysis of the deposited data

How the results depend on the processing

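TERT, DKC1, GAR1 and NHP2 were lower in all settings that included them (TERT is left out by a mean of at least 5 FPKM, DKC1 by keeping only symbols in 1 row naming 1 gene). The number of members called lower was 5, and 4 to 5 in the 9 alternatives with a test. Over those alternatives, 24.4% to 49.1% of the tested genes were called lower. With a mean of at least 5 FPKM or without joint rows the 5 included TINF2. No member was called higher as deposited, but 4 were with libraries scaled to the same sum (equal library sums) and 1 with quantile normalization. Of all tested genes, 48.7% and 31.7% were called higher in these settings. Members at least 2-fold lower went from 3 to 1 under each of them. Over all genes, equal library sums gave 3069 lower (4896 as deposited) and 172 at least 2-fold lower (361). A pseudocount of 0.1 gave 543 at least 2-fold lower and 1308 higher (870), and a mean of at least 5 FPKM gave 463 higher. With equal library sums, 12 shelterin partners (7) and 5 CST and primase genes (1) were higher, beside 48.7% of all tested genes. With median centring 2 of the latter were, beside 37.7%. CST and primase genes called lower went from 2 to 1 with no filter, equal library sums, quantile normalization or no joint rows. Of all genes tested, 24.4%, 26.2%, 37.5% and 41.8% were called lower in these settings. Genes of the chromatin list called lower went from 3 to 0 with equal library sums or quantile normalization. CTC1 moved to 0.19 with equal library sums and 0.035 with median centring, OBFC1 to -0.0062 with quantile normalization and PRIM1 to 0.035 with equal library sums. OBFC1 was called higher with equal library sums and with median centring. Of the 28 named pathway genes, 24 kept direction and call in those of the 9 tested alternatives that included them. Each romidepsin library left out gave values with no test, and for TERT these were -1.48 to -1.42. No paired analysis was possible because the control has 1 library and no replicate number in the labels. Depth limits TERC most.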

Other observations

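Promoter windows were matched by symbol for 8409 of the tested genes. The 970 with CACGTG in the 250 bases before an annotated start had a median log2 difference of -0.13, and 48.0% of them were called lower. The 7439 without it had a median of -0.04, and 41.3% were called lower. The 2-fold rule was met downward by 5.67% and 2.54% of these genes, and 30.7% and 35.0% were called higher. Their median control levels were 14.2 and 12.8 FPKM. For GGGCGG on either strand, the 6277 genes with it had a median of -0.03 and 40.7% called lower, and the 2132 without it had a median of -0.12 and 46.3% called lower. Of these genes, 36.4% and 29.1% were called higher, and 2.92% and 2.86% met the 2-fold rule downward. Genes that share a promoter motif are not independent replicates, and no test of these differences was made.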
